A study of Mus musculus with 6 samples.

Results

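The expression of 10 hematopoietic niche factors, Cxcl12, Kitl, Lepr, Vcam1, Angpt1, Il7, Foxc1, Ebf1, Ebf3 and Nes, was examined by RNA-seq in mouse bone marrow mesenchymal stem cells (BMMSCs) given siRNAs against Tet1 and Tet2. The genes were taken by symbol from the 36870 gene symbols of the deposited expression table. There were 3 control libraries, from cells given non-targeting siRNA, and 3 siRNA libraries, from cells given siRNAs against both Tet1 and Tet2. All came from the adherent marrow cells of C57BL/6 mice, flushed from the long bones of the leg, freed of non-adherent cells after 48 h and grown for a further 14 days in serum. The labels give the cells as passage 2, whereas the methods give an earlier passage and call the control cells vehicle-treated, and neither gives the age of the mice or says whether libraries of a group came from separate cultures or animals. The p-values therefore measure the spread between these libraries, which may be technical.

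In the marrow, hematopoietic stem cells and lymphoid progenitors are kept by signals from perivascular stromal cells, known as CXCL12-abundant reticular (CAR) cells or leptin receptor-positive cells. These cells secrete the chemokine CXCL12, which retains stem cells and B cell precursors through the receptor CXCR4, together with stem cell factor (Kitl), angiopoietin 1 and interleukin 7, and they carry the adhesion molecule VCAM1. The transcription factors FOXC1, EBF1 and EBF3 are needed to form or keep this cell state, and the intermediate filament nestin has been used to mark stromal cells around marrow vessels.

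The cells were first checked against their labels. The level of Tet2, in RPKM (reads scaled to gene length and to the total mapped in each library), was 2.57, 4.08 and 3.71 in the control libraries and 0.358, 0.238 and 0.202 in the siRNA libraries. Tet2 thus fell 13-fold (log2 fold change -1.80, limma adjusted p = 2.88e-05). Tet1 was at 0.032, 0.098 and 0.05 RPKM in the control and 0.001, 0.01 and 0.001 RPKM in the siRNA libraries, under the minimum mean of 0.1 RPKM for testing. With no minimum its log2 fold change on log2(RPKM + 1) was -0.08 (limma adjusted p = 0.0518). At such levels that fit cannot decide whether Tet1 fell. Of 18 stromal markers, 16 were tested and 13 fell (29.8% of all genes tested did), among them Ly6a (9.27-fold), Col3a1 (8.85-fold) and Postn (10.1-fold), and their summed level went from 1184 to 1695 RPKM in the control libraries to 155.3 to 314.9 RPKM in the siRNA libraries. The mesenchymal markers Thy1 and Lum were at or near 0 in both groups. Macrophage markers were abundant in cultures labelled as mesenchymal stem cells. Of 15 macrophage markers 7 rose, led by Lyz2 and Tyrobp, and 3 fell, Fcgr1, Aif1 and Mrc1 (14.7% and 29.8% over all genes). Their summed level was 8411 to 11280 RPKM in the control and 16710 to 19760 RPKM in the siRNA libraries, mostly through Lyz2 (4440 and 11300 RPKM), whose call was lost after quantile normalization, and the other 14 summed to 4864 to 6270 and 6863 to 7240 RPKM. In bulk RNA such as this, fewer stromal cells and less RNA per stromal cell cannot be told apart.

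Measured in RPKM, niche factor expression was lower after Tet1/Tet2 siRNA treatment, with Vcam1 as the exception. Of the 10 genes, 9 reached the minimum mean of 0.1 RPKM for testing, and of these 8 fell and 1 rose at an adjusted p under 0.05. Over all 13266 genes tested, 29.8% fell and 14.7% rose by that criterion, 44.5% in all, so that a fall alone was common. After centring each library on the stromal markers, 3 niche factors were lower and 3 higher. Centring by itself carried genes in general upward, to a median of 2.02 in log2. How many of all genes were then called was not counted, so 29.8% and 14.7% are no background for the centred calls. With the stricter criterion of p under 0.05 and a fold change over 2 on the log2(RPKM + 1) scale, 5 niche factors fell, against 5.63% of all genes, and 1 rose, against 0.95%, which makes 6 in all against 6.58%. With pseudocounts of 0.1 and 0.01 in place of 1 the number was 7 and 8, and after centring on the stromal markers it was 4. The share of all genes was not counted in these settings, so these numbers cannot be set against 6.58%. The median log2 fold change was -1.21 over the 9 niche factors tested and -0.09 over all genes. The control and siRNA values did not overlap for any of the 10 genes, of which 9 were lower in the siRNA libraries (35.9% of all genes tested) and 1 higher (19.8%). An exact permutation test of 3 libraries against 3 cannot give a p below 0.1, so the calls rest on limma, which shares the variance across genes.

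**Figure D1:**
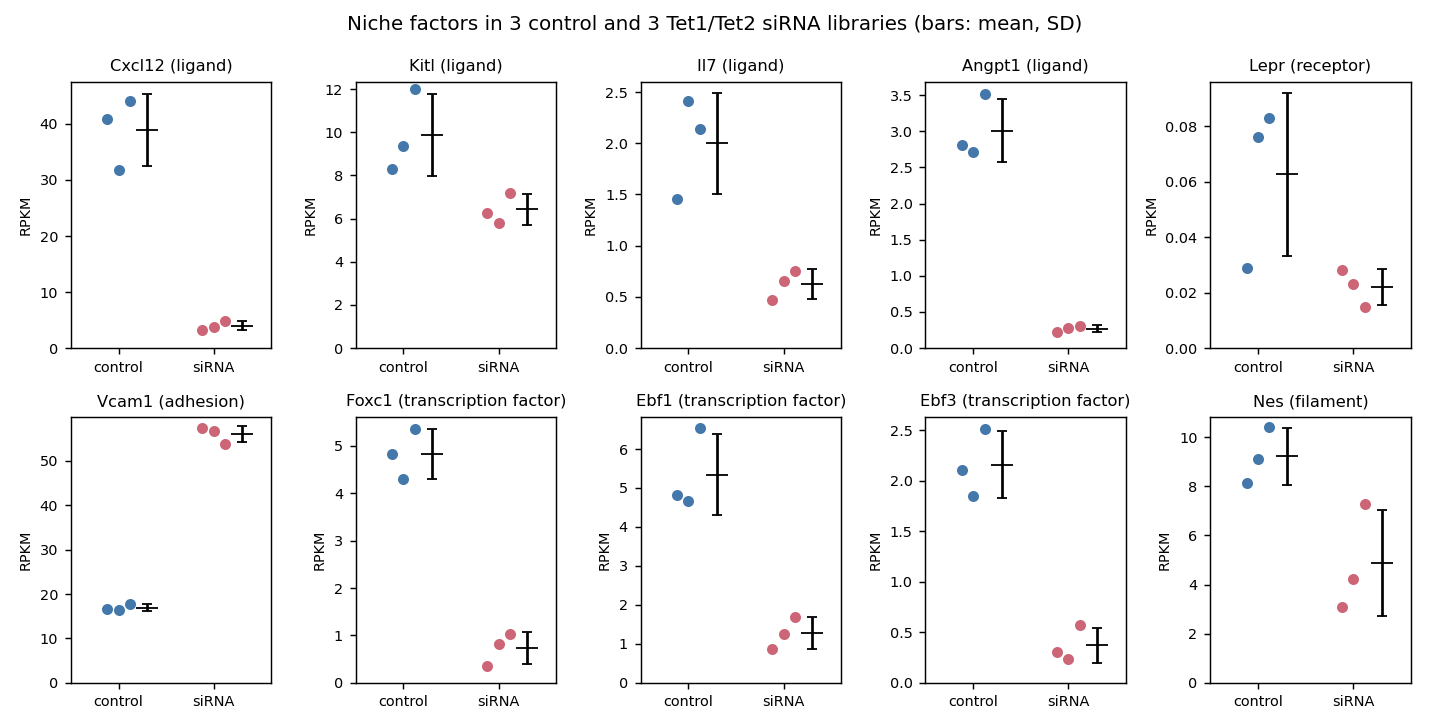
RPKM of each niche factor on a linear axis from 0, 1 panel per gene, with points for the 3 control and 3 siRNA libraries in the order of their replicate numbers and bars for the mean and SD. The groups are separate for every gene, with Vcam1 higher and the other 9 lower in the siRNA libraries, and the Lepr axis ends near 0.1 RPKM.

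The bases before the transcription start are shown for the niche factors with the largest falls that had an entry in RefSeq (GRCm38.p6) and for Kitl, which changed least, since these are the stretches where promoter methylation would be read. Entries were found for 7 of the 10 genes. None was found for Vcam1, Angpt1 and Il7, and the stretch before the listed Ebf1 start lies in an annotated exon. Each sequence runs 5' to 3' on the strand of the gene up to the first annotated exon, and capitals mark the GC box GGGCGG on either strand, where matches can overlap. Cxcl12 is at chr6:117168285-117168534 (+), Foxc1 at chr13:31806396-31806632 (+), Ebf3 at chr7:137314446-137314695 (-) and Kitl at chr10:100015571-100015629 (+).
Cxcl12: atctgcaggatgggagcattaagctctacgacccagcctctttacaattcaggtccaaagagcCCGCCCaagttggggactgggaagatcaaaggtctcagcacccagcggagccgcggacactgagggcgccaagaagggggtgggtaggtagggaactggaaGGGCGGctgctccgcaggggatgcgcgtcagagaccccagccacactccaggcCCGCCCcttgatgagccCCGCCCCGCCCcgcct
Foxc1: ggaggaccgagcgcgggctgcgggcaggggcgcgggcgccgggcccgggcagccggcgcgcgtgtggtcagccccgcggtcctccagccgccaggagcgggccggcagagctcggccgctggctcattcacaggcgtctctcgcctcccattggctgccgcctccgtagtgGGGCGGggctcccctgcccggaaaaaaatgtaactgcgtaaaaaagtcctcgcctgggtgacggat
Ebf3: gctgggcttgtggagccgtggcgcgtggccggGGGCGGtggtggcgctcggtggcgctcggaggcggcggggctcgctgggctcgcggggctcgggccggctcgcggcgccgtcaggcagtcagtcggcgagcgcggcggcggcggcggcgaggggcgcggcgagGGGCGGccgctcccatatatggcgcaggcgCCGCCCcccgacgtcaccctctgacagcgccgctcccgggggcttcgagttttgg
Kitl: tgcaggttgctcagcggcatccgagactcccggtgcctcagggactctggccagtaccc
In the full 250 bases, 5 of the 7 genes held a GC box, a motif present in 32.7% of 32851 promoter windows of that length. Cxcl12 had 5, Ebf3 had 3, Kitl had 3, Nes had 2 and Foxc1 had 1. The number of CG dinucleotides, the sites that Tet enzymes act on, was 43 for Ebf3, 29 for Foxc1, 23 for Kitl, 15 for Nes, 14 for Cxcl12, 10 for Lepr and 9 for Ebf1, against a median of 6 and quartiles of 2 and 16 over all windows. Kitl held more CG sites in its 250 bases than Cxcl12, and no relation of these counts to the falls was tested. However, only 59 of the Kitl bases precede its first annotated exon, against all 250 for Cxcl12, so these counts are over unlike sequence. Both strands were also searched for 3 other motifs. The EBF motif (TCCC and GGGA with 2 bases between them), present in 0.779% of windows, was found in none of the 7. The interferon-stimulated response element core (GAAA repeated after 2 bases, 2.98%) was found in Ebf1 and TATAAA (12.4%) in Kitl. Methylation itself was not measured in these libraries.

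Cxcl12 (chr6:117168535-117181367, + strand, GRCm38) had the highest control level among the niche factors after allowing for length. It stood at 40.9, 31.8 and 44.1 RPKM in control replicates 1 to 3 and at 3.29, 3.79 and 4.91 RPKM in siRNA replicates 1 to 3. The lowest control library was 6.48 times the highest siRNA library, and 10.3% of the control mean was left. The mean fell 9.75-fold, from 38.9 ± 6.37 to 3.99 ± 0.832 RPKM (SD, n = 3), and the log2 fold change was -3.0 (SE 0.15, limma adjusted p = 4.81e-06). In the order of all 13266 genes by log2 fold change, Cxcl12 was number 42 from the bottom. On this log2 scale Cxcl12 fell more than any other niche factor, whereas by the ratio of means Angpt1 fell more. Its mean level moved from the most abundant of the 10 genes to the fourth, behind Vcam1, Kitl and Nes.

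Angpt1 (chr15:42424723-42676977, - strand) encodes angiopoietin 1, the ligand of the receptor TIE2 on endothelium and stem cells. It was read at 2.80, 2.71 and 3.51 RPKM in the control and 0.223, 0.273 and 0.311 RPKM in the siRNA libraries, with a wide gap between the groups. The mean fell 11.2-fold, from 3.01 ± 0.437 to 0.269 ± 0.0441 RPKM (SD, n = 3). Because the siRNA values are under the pseudocount of 1, the log2 fold change of -1.65 (SE 0.09, limma adjusted p = 8.39e-06) understates this ratio. An unnamed antisense gene, Gm17473, shares 737 exon bases with Angpt1, and the use of strand in counting is not given in the sources used here.

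Il7, the cytokine on which B and T cell precursors depend (chr3:7569994-7613760, - strand), was at 1.46, 2.41 and 2.14 RPKM in the control and 0.466, 0.657 and 0.751 RPKM in the siRNA libraries. The groups were separate, although the control values varied more than those of Angpt1. Its mean fell 3.20-fold, from 2.00 ± 0.492 to 0.625 ± 0.145 RPKM (SD, n = 3), and the log2 fold change was -0.88 (SE 0.13, limma adjusted p = 0.000976).

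Kitl (chr10:100015630-100100416, + strand), the stem cell factor that binds KIT, changed least. Its values were 8.29, 9.35 and 12 RPKM in the control and 6.27, 5.81 and 7.19 RPKM in the siRNA libraries, so that the lowest control was only 1.15 times the highest siRNA library. The mean fell 1.54-fold, from 9.88 ± 1.91 to 6.42 ± 0.705 RPKM (SD, n = 3), and the log2 fold change was -0.54 (SE 0.13, limma adjusted p = 0.0116). Without siRNA replicate 2 the call was lost (limma adjusted p = 0.0503), as it was with gene-wise variance (limma adjusted p = 0.0707). The secreted ligands therefore covered a range from 1.54-fold for Kitl to 11.2-fold for Angpt1 in the ratio of group means.

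Vcam1 (chr3:116109949-116129688, - strand), the adhesion molecule that binds integrin alpha 4 beta 1 on blood cells, went the opposite way. It was read at 16.7, 16.3 and 17.8 RPKM in the control and at 57.3, 56.6 and 53.9 RPKM in the siRNA libraries, with every siRNA library more than 3 times the highest control. The mean rose 3.30-fold, from 16.9 ± 0.775 to 55.9 ± 1.81 RPKM (SD, n = 3), and the log2 fold change was 1.67 (SE 0.06, limma adjusted p = 9.98e-07), number 21 from the top of all genes tested. The ratio of Cxcl12 to Vcam1 in the same library was between 1.95 and 2.48 in the control and between 0.0574 and 0.0912 in the siRNA libraries. Multiplying a library by a single factor cannot change this ratio, although quantile normalization can. VCAM1 is also found on marrow macrophages and activated endothelium. The macrophage markers other than Lyz2 summed to 6863 to 7240 RPKM in the siRNA against 4864 to 6270 RPKM in the control libraries. Of all 15, 7 were called higher and 3 lower (14.7% and 29.8% over all genes). The 6 endothelial markers summed to 7.334 to 7.746 against 4.267 to 5.038 RPKM, but without Vwf the other 5 summed to 1.353 to 1.48 against 2.435 to 2.881 RPKM. The part of these cells in the rise of Vcam1 was not tested.

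Lepr (chr4:101717404-101815352, + strand), the leptin receptor that defines much of the perivascular stroma in the marrow, was almost absent from both groups. It was listed at 0.029, 0.076 and 0.083 RPKM in the control and 0.028, 0.023 and 0.015 RPKM in the siRNA libraries. At the depth estimated from the low values of the table, these correspond to about 6, 14 and 15 reads and about 6, 5 and 3 reads. The groups just failed to touch, with control replicate 1 at 1.04 times siRNA replicate 1. Below the minimum of 0.1 RPKM the gene was not tested. With no minimum its log2 fold change on log2(RPKM + 1) was -0.06 (limma adjusted p = 0.108). At such levels the pseudocount of 1 shrinks any difference, and the reads are few, so this fit cannot decide whether Lepr changed.

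Foxc1 (chr13:31806633-31812476, + strand), the forkhead factor of CAR cells, was at 4.83, 4.29 and 5.35 RPKM in the control and 0.364, 0.828 and 1.02 RPKM in the siRNA libraries. All 3 siRNA libraries lay far below the controls. The mean fell 6.53-fold, from 4.82 ± 0.532 to 0.739 ± 0.339 RPKM (SD, n = 3), and the log2 fold change was -1.76 (SE 0.15, limma adjusted p = 5.57e-05). Its close relative Foxc2, which is not among the niche factors, fell 4.18-fold in the same libraries, from 4.33 to 1.04 RPKM (limma adjusted p = 0.000216).

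Ebf1 and Ebf3, members of the early B cell factor family that act in B cells and in marrow stroma, fell together. Ebf1 (chr11:44617317-45008091, + strand) was at 4.81, 4.68 and 6.54 RPKM in the control and 0.878, 1.25 and 1.70 RPKM in the siRNA libraries. Ebf3 (chr7:137193673-137314445, - strand) was at 2.10, 1.85 and 2.51 RPKM in the control and 0.306, 0.237 and 0.570 RPKM in the siRNA libraries. In both genes the siRNA libraries lay below every control. The mean of Ebf1 fell 4.18-fold, from 5.34 ± 1.04 to 1.28 ± 0.411 RPKM (SD, n = 3, log2 fold change -1.48, SE 0.16, limma adjusted p = 0.000169). That of Ebf3 fell 5.81-fold, from 2.16 ± 0.333 to 0.371 ± 0.176 RPKM (SD, n = 3, log2 fold change -1.21, SE 0.12, limma adjusted p = 9.81e-05). A further family member, Ebf2, was lower still in level and fell 8.04-fold, from 0.740 to 0.092 RPKM (limma adjusted p = 0.00072). Ebf1 shared 0 of its 6030 transcript stretches of 50 bases with any other Ebf gene, and Ebf3 shared 0 of 5429.

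Nes (chr3:87971078-87980451, + strand) had the largest standard error on the log2(RPKM + 1) scale. It stood at 8.11, 9.10 and 10.4 RPKM in the control and 3.10, 4.24 and 7.28 RPKM in the siRNA libraries, where siRNA replicate 3 came close to the lowest control. The mean fell 1.89-fold, from 9.21 ± 1.16 to 4.87 ± 2.16 RPKM (SD, n = 3), and the log2 fold change was -0.85 (SE 0.23, limma adjusted p = 0.0168). Without siRNA replicate 2 the call was lost (limma adjusted p = 0.0615), and likewise with gene-wise variance (limma adjusted p = 0.108). Without siRNA replicate 3 the log2 fold change was -1.13. Of 8 other genes often read with Nes, 3 were tested and 2 fell (29.8% over all genes), with a median log2 fold change of -0.24 against -0.09 over all genes. These were Des, which fell 2.03-fold (limma adjusted p = 0.0216), and Synm, which fell 3.21-fold (limma adjusted p = 0.0188), both intermediate filament genes under 1 RPKM whose calls were lost under at least 1 other scaling of the libraries. Vim, at 1780 and 1520 RPKM, did not pass (limma adjusted p = 0.0794), and the neural genes Gfap and Sox10 were near 0.

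**Figure D2:**
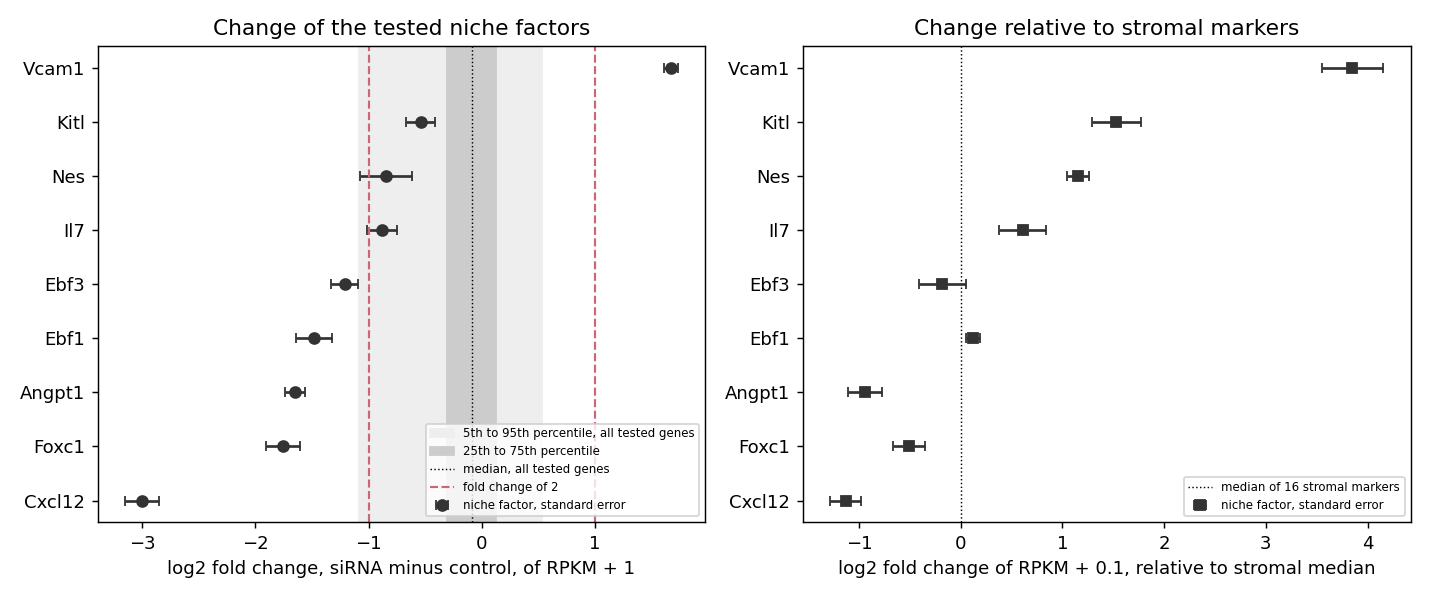
Log2 fold change (siRNA minus control) of the 9 niche factors tested with bars of 1 standard error, on log2(RPKM + 1) in the left panel, where shading and a dotted line give the percentiles and median of all genes tested, and relative to the median of 16 stromal markers on log2(RPKM + 0.1) in the right panel. Vcam1 alone is above 0 on the left, whereas Kitl, Nes, Il7 and Ebf1 lie above 0 as well on the right.

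The falls were then set against those of the stroma as a whole. Before any centring, 16 stromal markers had fallen by a median of 2.03 on log2(RPKM + 0.1), from -3.43 for Postn to -0.32 for Mcam. Each library was then centred on the median of these markers. The library medians used for centring differed by -2.13 between the group means (siRNA minus control). Before centring, every niche factor tested except Vcam1 (1.72) lay within the range of the stromal markers, from Cxcl12 (-3.26) to Kitl (-0.60). The calls after centring are against the median of the markers, not against their range. Cxcl12 (-1.13, limma adjusted p = 0.00409), Angpt1 (-0.94, limma adjusted p = 0.00701) and Foxc1 (-0.51, limma adjusted p = 0.0388) were lower than the stromal median. Ebf3 (-0.18, SE 0.23), Ebf1 (0.12, SE 0.07) and Il7 (0.61, SE 0.23) did not pass the test, at limma adjusted p of 0.479, 0.173 and 0.06. Nes (1.15, limma adjusted p = 0.00408), Kitl (1.53, limma adjusted p = 0.00481) and Vcam1 (3.85, limma adjusted p = 0.00408) were higher, although Nes and Kitl were lower in RPKM. The same centring moved the median of all genes tested to 2.02, so that Nes and Kitl lay below that median. The share of all genes called after centring was not counted. The choice of the 16 markers sets the reference, and whether the stromal cells had become fewer was not tested.

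Replicates of a group differed in the same sense for most niche factors. Control replicate 3 was the highest control for 9 of the 10 genes, with Il7 highest in control replicate 2. Among the siRNA libraries, replicate 3 was the highest for 8 of the 10, with Vcam1 and Lepr highest in replicate 1. The stromal markers followed this order, being highest in control replicate 3 for 12 of 16 genes and in siRNA replicate 3 for 16 of 16. Of 15 macrophage markers, 12 were highest in control replicate 1. In the siRNA libraries their highest values were spread over replicates 1, 2 and 3 (3, 8 and 4 genes). Leaving out control replicate 3 or siRNA replicate 3 ended no niche factor's call.

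The receptors and partners of the niche factors were examined next, from a list of 14 genes. Of 9 tested, 4 rose and 3 fell (14.7% and 29.8% over all genes), with a median log2 fold change of 0.00 against -0.09 over all genes. Cxcr4, the CXCL12 receptor, was at 13.4, 13.3 and 10.9 RPKM in the control and 52.2, 50.4 and 39.8 RPKM in the siRNA libraries, the reverse of its ligand. It rose 3.79-fold, from 12.5 ± 1.39 to 47.5 ± 6.71 RPKM (SD, n = 3, log2 fold change 1.84, SE 0.12, limma adjusted p = 1.5e-05). Itga4, the integrin subunit that pairs with Itgb1 to bind VCAM1, rose 1.79-fold, from 9.50 to 17.0 RPKM (limma adjusted p = 0.000324), whereas Itgb1 fell from 383 to 273 RPKM (limma adjusted p = 0.00227). Itgb7, the other beta subunit that pairs with Itga4, rose from 1.22 to 1.95 RPKM (limma adjusted p = 0.00408). The interleukin 7 receptor showed unlike changes in its subunits. Il7r rose 1.71-fold, from 35 to 60.0 RPKM (limma adjusted p = 0.000135), and the shared cytokine receptor chain Il2rg fell 1.56-fold, from 25.8 to 16.6 RPKM (limma adjusted p = 0.000264). Angpt2, the second angiopoietin and a context-dependent antagonist of angiopoietin 1, fell 2.88-fold, from 1.26 to 0.438 RPKM (limma adjusted p = 0.000243).

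The other 7 partners were scarcely expressed. Kit, the receptor of stem cell factor, was at 0.121 and 0.120 RPKM (limma adjusted p = 0.981), and the cytokine gene Tslp, whose receptor contains IL7R, was at 0.160 and 0.132 RPKM (limma adjusted p = 0.712). The angiopoietin receptor genes Tek and Tie1 and the leptin gene Lep had means over the 6 libraries under the minimum of 0.1 RPKM. The decoy receptor Ackr3 and the CXCL12-cleaving peptidase Dpp4 did so too. Cxcr4, Itga4 and Il7r were thus read in the same cultures as their ligands, while the receptors for Kitl and Angpt1 were at or near 0. Which cells of the culture carried Cxcr4 was not tested, and of the macrophage markers given above 7 of 15 were higher and 3 lower in the siRNA libraries.

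**Figure D3:**
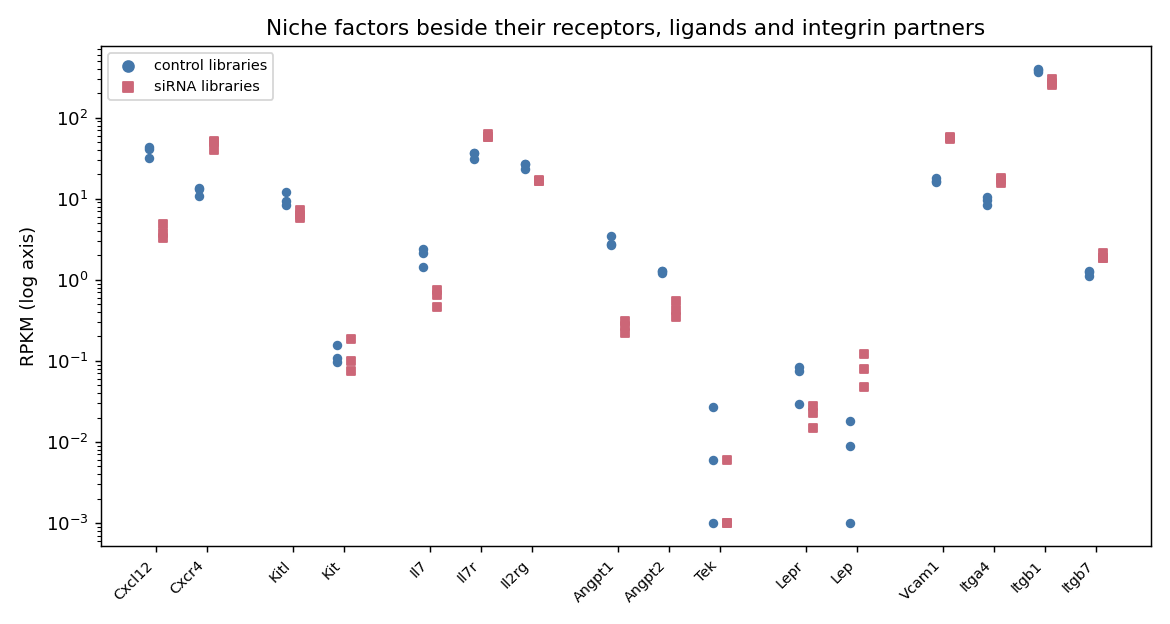
RPKM on a log axis of niche factors beside their receptors and partners, with circles for the 3 control and squares for the 3 siRNA libraries. Cxcl12 falls from a mean of 38.9 to 3.99 RPKM while Cxcr4 rises from 12.5 to 47.5 RPKM, Vcam1 and Itga4 both rise, and Kit lies near 0.12 RPKM in both groups.

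Other ligands by which stroma acts on blood cells gave a mixed picture. Of 27 listed, 21 were tested, of which 11 fell and 4 rose (29.8% and 14.7% over all genes), with a median log2 fold change of -0.30. Csf1, the macrophage growth factor, had the largest decrease on the log2(RPKM + 1) scale at -1.92, falling 3.72-fold from 231 to 62.0 RPKM (limma adjusted p = 0.00013). By the ratio of means Il6 fell further, 16-fold, from 2.79 to 0.175 RPKM (limma adjusted p = 4.04e-05), with 1 siRNA library at the lowest listed value of 0.001 RPKM. Wnt5a fell 3.17-fold, from 6.75 to 2.13 RPKM (limma adjusted p = 8.23e-05). Against these, Angptl4 rose 2.27-fold, from 9.08 to 20.6 RPKM (limma adjusted p = 6.53e-05), and Igf1 rose 1.85-fold, from 192 to 354 RPKM (limma adjusted p = 2.75e-05).

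Among other genes of CAR and leptin receptor-positive cells, 23 of 25 were tested, of which 13 fell and 2 rose (29.8% and 14.7% over all genes), with a median log2 fold change of -0.63. The platelet-derived growth factor receptors, used to isolate such cells, were among the largest decreases. Pdgfra fell 10.5-fold, from 9.92 ± 1.52 to 0.944 ± 0.145 RPKM (limma adjusted p = 3.69e-06), close to the ratios of Cxcl12 and Angpt1, and Pdgfrb fell 5.81-fold, from 30.2 to 5.19 RPKM (limma adjusted p = 0.000106). The complement inhibitor Serping1 fell 7.20-fold (limma adjusted p = 0.000207). Adiponectin (Adipoq), which marrow CAR cells share with adipocytes, rose 2.27-fold, from 3.35 to 7.60 RPKM (limma adjusted p = 0.00132). Lipoprotein lipase (Lpl) rose 1.36-fold, from 880 to 1200 RPKM (limma adjusted p = 0.0113), although its call was lost after quantile normalization. Pdgfra, Pdgfrb, Prrx1, Cdh11, Nt5e and Mcam also stand in the stromal marker list.

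**Figure D4:**
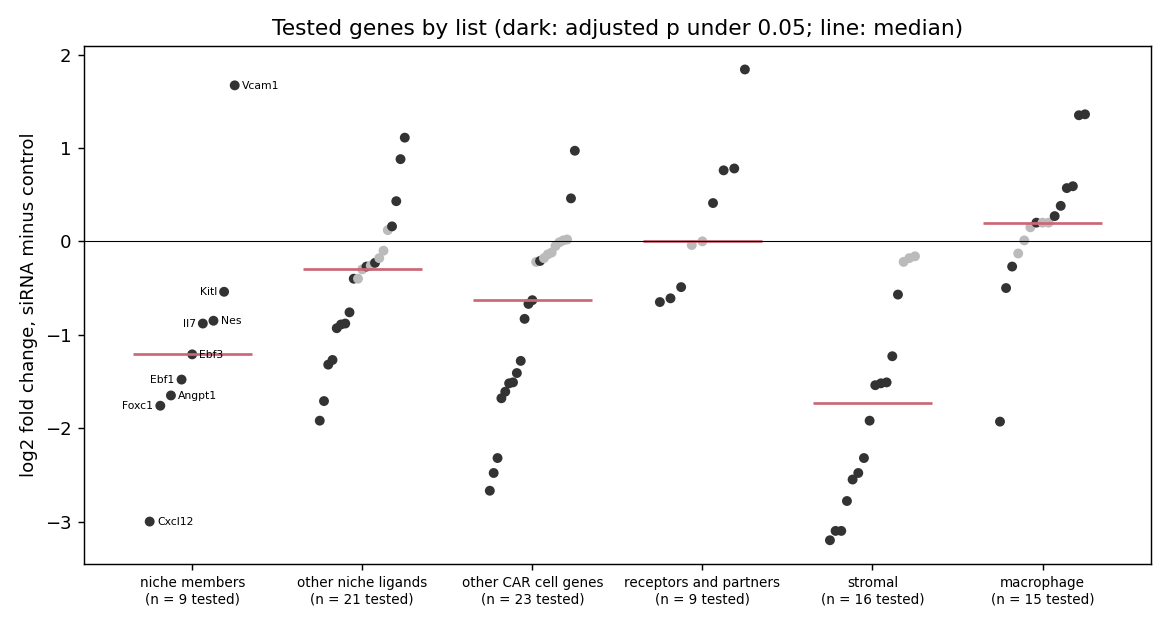
Log2 fold change on the log2(RPKM + 1) scale of every tested gene in each list, with dark points for an adjusted p under 0.05 and a line at the list median. The niche factors have a median of -1.21, between the stromal markers at -1.73 and the other CAR cell genes at -0.63, and the macrophage markers have a median of 0.20.

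The genes whose pattern over the 6 libraries was most like that of Cxcl12 were the apoptosis inhibitor Bcl2l1 (Pearson r = 0.9996 of log2(RPKM + 1)), Dcbld1 (0.9995), the glucose transporter gene Slc2a10 (0.9993), the growth arrest gene Gas1 (0.9993) and the myosin gene Myo1d (0.9992), among genes averaging 1 RPKM or more. These correlations mostly express the shared difference between the groups. Gas1 fell from 4.25 to 0.354 RPKM, and Bcl2l1 from 63.1 to 38.9 RPKM, so that likeness of pattern did not mean likeness in size.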

How the data were processed

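Total RNA libraries were sequenced as paired-end reads. Adaptor trimming, mapping to GRCm38 and gene quantification in DNASTAR Lasergene were done by the authors. The deposited table gives linear RPKM in 36915 rows (FPKM in the methods), with a p-value of their own comparison per row, which was not used. Annotation release, strand and multi-mapping reads are not given in the sources used here.

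The niche factors, lists and tests were chosen with earlier results of these data known. Where a symbol had several rows (37 symbols), only that with the largest mean entered. The 13266 genes averaging 0.1 RPKM or more were compared two-sided on log2(RPKM + 1) by limma 3.58.1 under R 4.3.3 (lmFit, eBayes with trend) and Benjamini-Hochberg adjustment over all of them, after a test on simulated data. Fold changes in the text are ratios of mean RPKM unless called log2. All 10 niche factors were named, and from each list the 3 largest decreases and 2 largest increases with an adjusted p under 0.05. Further genes that describe a list or a role (Tet3, Foxc2, Ebf2, Il7r, Itgb7, Tslp, Kit, Cd34, Vim and those at or near 0) were named after their values were seen. A listed marker is not reported here. Centring on the stromal markers used a pseudocount of 0.1 and the gene-wise variance, and a fit with both but no centring was added after seeing the data. Positions and exons are from GENCODE M21.

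The table gives no read totals. Depth was estimated, in Python 3.11.15 with numpy 2.4.6 and pandas 2.3.3, as the number of reads that brings low values closest to whole reads, and was 32300000 to 38500000 per library. Only 48.8% to 60.6% of low values then lay within 0.1 of a whole read, where chance gives 20%, so no count test was run. Libraries correlated with r of 0.992 to 0.9972 within and 0.9489 to 0.9689 between groups.

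Replicate numbers are shared between the groups. The deviations of same-numbered libraries from their group means correlated at 0.1489, 0.1172 and 0.4617 for numbers 1 to 3, although control 1 with siRNA 2 reached 0.3318 and control 2 with siRNA 1 reached 0.2046, and a further fit therefore took them as pairs, on these values alone. Alternatives were other pseudocounts, filters and scalings, other variance models, the replicate block, summed duplicate symbols and each library left out.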

Additional observations from a re-analysis of the deposited data

How the results depend on the processing

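Cxcl12, Vcam1, Angpt1 and Foxc1 kept their direction and their call in 19 of 19 alternatives. The one setting that reversed directions was the centring on 16 stromal markers, which moved the median of all genes from -0.09 to 2.02. It gave 3 niche factors lower and 3 higher in place of 8 and 1. Of the 56 genes tested in the 4 related lists, 3 were lower and 45 higher in place of 29 and 10. The pseudocount of 0.1 and gene-wise variance of that setting were also fitted without the centring, after seeing the data. That fit gave 6 lower and 1 higher niche factors and 25 lower and 10 higher related genes, with Kitl (-0.60) and Nes (-0.99) not called. The share of all genes called was counted only in the main fit, at 29.8% lower and 14.7% higher. Counts in the other settings cannot be set against it. Centred, Ebf1 became 0.12, Il7 0.61, Kitl 1.53 and Nes 1.15, and Ebf3 became -0.18 without a call. The other scalings moved the median of all genes to between -0.16 (TPM) and 0.06 (quantile normalization) and ended no niche factor's call. With gene-wise variance Kitl (-0.54) and Nes (-0.85) lost their calls, with fewer degrees of freedom by construction. Leaving out each library gave log2 fold changes of -0.65 to -0.41 for Kitl and -1.13 to -0.63 for Nes, and both lost their call without siRNA replicate 2. Niche factors called lower then numbered 6 to 8, those past the stricter criterion 6 to 7, and related genes 25 to 32 lower and 9 to 10 higher. With the replicate block 8 niche factors were lower, 1 higher and 6 past the stricter criterion, and the pairing changed none of their calls. A pseudocount of 0.01 moved Angpt1 from -1.65 to -3.44, Foxc1 from -1.76 to -2.81 and Ebf3 from -1.21 to -2.59. Then 8 niche factors passed the stricter criterion, but the share of all genes at that pseudocount was not counted. Low levels limit Lepr and the siRNA values of Angpt1, Ebf3 and Il7, whose ratios rest on values under 1 RPKM. The same limit holds for Foxc1, whose siRNA mean was 0.739 RPKM.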

Other observations

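Endothelial, lymphoid and progenitor markers were at low levels. Of 6 endothelial markers 5 were tested, and 2 fell and 2 rose (29.8% and 14.7% over all genes). Kdr, a vascular endothelial growth factor receptor, fell 2.62-fold, from 1.58 to 0.604 RPKM (limma adjusted p = 0.00031), and Emcn fell from 0.380 to 0.152 RPKM (limma adjusted p = 0.0194), a call lost under at least 1 other scaling. Vwf, von Willebrand factor, rose 3.16-fold, from 1.93 to 6.10 RPKM (limma adjusted p = 1.96e-05), and Pecam1 rose from 0.175 to 0.377 RPKM (limma adjusted p = 0.0272). Of the lymphoid list, Cd4 rose 3.15-fold, from 2.56 to 8.06 RPKM (limma adjusted p = 1.64e-05). The progenitor markers Flt3, Mpo and Gata1 were at or near 0, and Kit and Cd34 did not pass the test. The macrophage markers did not move together: Tyrobp rose 2.50-fold, from 466 to 1160 RPKM (limma adjusted p = 0.000578), whereas Fcgr1 fell 3.92-fold, from 109 to 27.8 RPKM (limma adjusted p = 3.09e-06), Aif1 fell from 51.8 to 36.1 RPKM (limma adjusted p = 0.00767) and Mrc1 fell from 170 to 141 RPKM (limma adjusted p = 0.0327), the last a call lost under at least 1 other scaling. Tet3, which the siRNAs did not target, was at 7.03 and 7.66 RPKM (limma adjusted p = 0.508).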
